A study of Mus musculus with 12 samples.

Results

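Glycosaminoglycan chain synthesis and sulfation enzymes were examined in murine hip cartilage before and after injury. Members were all probes of the normalized array table whose gene symbol belongs to the Chst, Chsy, Chpf, Csgalnact (also listed as Galnact), Xylt, B3gat, B4galt, Ext, Extl, Ndst, Hs2st, Hs3st, Hs6st, Sulf or Papss families. The rule used names alone and no measured value. It found 52 probes for 37 genes among the 21004 probes and 15424 gene symbols of the table. By role, 4 genes build the linker and 2 the chondroitin chain, and the 5 Ext and Extl genes are grouped here as heparan chain genes. A further 4 are chondroitin or dermatan sulfotransferases, 8 are heparan sulfotransferases, 2 are heparan endosulfatases and 2 make the sulfate donor. Another 5 are keratan or other carbohydrate sulfotransferases, and 5 are other beta-1,4-galactosyltransferases.

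Glycosaminoglycans are long sugar chains, and those of chondroitin and heparan sulfate are joined to a core protein through a short linker begun with xylose. The next sugar added to the linker decides whether such a chain becomes chondroitin or heparan sulfate, and sulfotransferases then place sulfate at set positions with PAPS as the donor. In cartilage the chondroitin sulfate chains of aggrecan hold water and give the tissue its resistance to compression, while heparan sulfate proteoglycans around the chondrocyte bind growth factors.

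The 12 arrays were Illumina mouse BeadChips, hybridized with total RNA of C57BL6 mouse hip cartilage, from animals that were 4 to 6 weeks old by the labels. They form 4 groups of 3 arrays: WT control, WT injured, MAPK9 knockout (Mapk9 KO) control and Mapk9 KO injured. The injury was the avulsion of the femoral head from the hip, and each replicate pooled cartilage of 3 mice. The control tissue was frozen at once, whereas the injured tissue spent 4 h in culture, and injury and culture cannot be told apart in any comparison below. Mapk9 encodes a c-Jun N-terminal kinase. The sources used here do not say which exons the knockout removes, and a probe outside them would check nothing. The brighter Mapk9 probe read 10.05 to 10.90 on the WT arrays and 8.69 to 9.28 on the Mapk9 KO arrays, on the log2 scale, and the dimmer one was undetected on all Mapk9 KO arrays and on 2 of the 3 WT injured arrays.

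All values below are log2 signals after the vsn normalization of the authors, and differences between groups are log2 fold changes. A probe was counted as detected on an array when its deposited detection p-value was under 0.05. Of the 52 member probes, 40 were detected on all 12 arrays, 50 on at least 3 and 2 on fewer, and 28 of the 37 genes had a probe detected on every array. A probe's signal depends on its sequence, so that levels are compared between arrays and never between genes. A member was called upregulated or downregulated if limma gave any of its probes a change of more than 2-fold with an adjusted p under 0.05. With 3 arrays in each group an exact permutation test cannot give a two-sided p below 0.1.

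The cell type markers of the samples differed between control and injured arrays, and they stand beside every injury value given here. All 8 genes of a chondrocyte list that are in the table were detected on every array. Their mean log2 signal lay between 10.27 and 10.98 in WT control hips and between 12.03 and 12.36 in WT injured hips. In Mapk9 KO it lay between 10.23 and 10.92 in control and between 12.13 and 12.34 in injured hips. Of the 8 genes, 6 were called upregulated in WT and 7 in Mapk9 KO, where Comp passed at a dimmer probe alone. In WT 1 gene, Col11a1, was called downregulated at a dimmer probe, while its brightest gave 0.85. Col2a1 was not called and changed by 0.54 (adjusted p = 0.15) in WT and by 0.03 (adjusted p = 0.937) in Mapk9 KO. All 13 genes of a skeletal muscle list were detected on the 6 control arrays, and 11 to 13 on each injured array. Their mean fell from between 11.18 and 12.63 to between 8.35 and 10.37 in WT, and from between 12.72 and 13.10 to between 8.81 and 10.06 in Mapk9 KO, and 11 and 13 of the genes were called downregulated. An osteoclast list of 4 genes had group means of 11.30 and 10.13 in WT control and injured hips and of 11.43 and 9.47 in Mapk9 KO. An adipocyte list of 4 genes had group means of 7.86 and 5.98 in WT and of 8.59 and 5.69 in Mapk9 KO, with 2 and 3 genes called downregulated. A neutrophil list of 6 genes had means of 13.23 and 13.95 in WT and of 13.51 and 13.74 in Mapk9 KO, and 3 of the genes were called upregulated in each genotype, of which Ltf and Mpo passed at dimmer probes alone. The mean of a macrophage list of 6 genes was 9.54 and 9.62 in WT and 9.63 and 9.53 in Mapk9 KO, but its genes moved in opposite directions. Cd14 rose by 5.01 and by 5.33, whereas Csf1r fell by 1.87 and by 2.21, and 3 genes in WT and 4 in Mapk9 KO were called downregulated. Of 6 osteoblast genes 3 and 4 were called downregulated, with group means of 11.55 and 11.25 in WT and of 11.55 and 10.94 in Mapk9 KO. Lyz2, called upregulated among the macrophage genes, and Bglap, among the osteoblast genes, also passed at dimmer probes alone. Of 5 erythroid genes 0 were called, and of 7 endothelial genes 1 was called upregulated in WT. WT control replicate 2 and Mapk9 KO control replicate 3 had the lowest chondrocyte values of their groups, 10.27 and 10.23. The part of these shifts in the changes of the enzymes was not tested, and fewer cells of a type cannot be told apart from less RNA per cell.

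**Figure D1:**
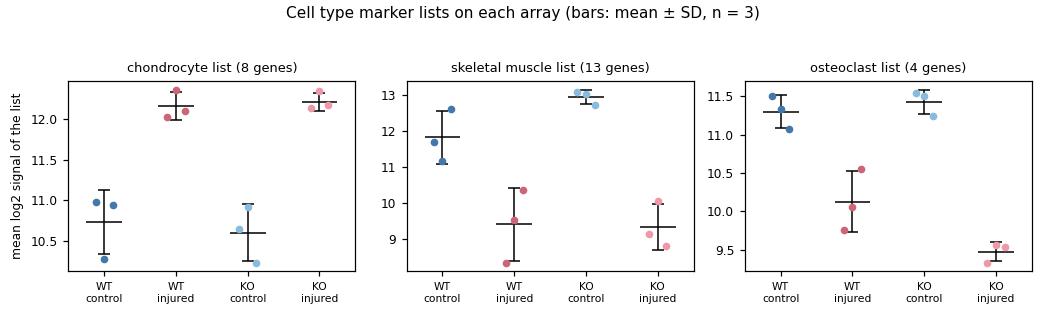
Mean log2 signal of 3 cell type marker lists on each of the 12 arrays, with the horizontal lines at the group mean and bars of 1 SD (n = 3). The chondrocyte list is higher and the skeletal muscle and osteoclast lists are lower on the injured arrays of both genotypes.

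The first comparison asked which of the enzymes changed post injury in WT cartilage. Upregulated were 5 genes, Chst11, Extl1, Hs3st3a1, Papss2 and B4galt3, while Hs2st1 and Chst10 were downregulated. The rises lay between 1.14 and 1.88 on the log2 scale, taking the brightest probe of each gene. The 7 genes are 18.9% of the 37 members, beside 16.6% of all 15424 genes of the table (8.36% up and 8.25% down), so that the share of changed members was near that of all genes. The median change was -0.14 over the members and -0.02 over all genes. Without the fold limit 13 members passed, 8 up and 5 down, or 35.1% of the members against 28.5% of all genes (14.1% up and 14.5% down). An ordinary test of each probe on its own variance, with adjustment, kept Chst11, B4galt3 and Hs2st1 alone. Quantile normalization without background correction kept Chst11, Extl1 and Hs3st3a1 alone.

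In Mapk9 KO cartilage 12 of the 37 members changed post injury, 9 up and 3 down. This is 32.4% of the members, beside 21% of all genes (10.6% up and 10.4% down). The upregulated genes were the 5 of WT together with B4galt7, Xylt1, Chst3 and Chst12, and the downregulated genes were Hs2st1, Hs6st1 and Hs3st3b1. The Hs3st3b1 call rests on a probe near background, and a brighter probe of that gene, deposited under an older symbol and not counted here, rose. Quantile normalization without background correction kept 6 of the 12, Chst11, Chst3, Extl1, Hs3st3a1, Papss2 and B4galt3, and lost B4galt7, Xylt1, Chst12, Hs2st1, Hs6st1 and Hs3st3b1. The 6 genes called in both genotypes are 85.7% of the WT calls and 50.0% of the Mapk9 KO calls, beside 78% and 61.7% for the 1996 such genes of the whole table, and 13 distinct genes were called in either. Without the fold limit 21 members passed in Mapk9 KO, 12 up and 9 down, or 56.8% of the members against 42.1% of all genes (20.6% up and 21.8% down). The 2 injury comparisons share no arrays. Averaged over both genotypes, 8 members passed, 6 up and 2 down, which is 21.6% beside 17.8% of all genes (8.84% up and 8.94% down), and 5 passed without background correction.

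**Figure D2:**
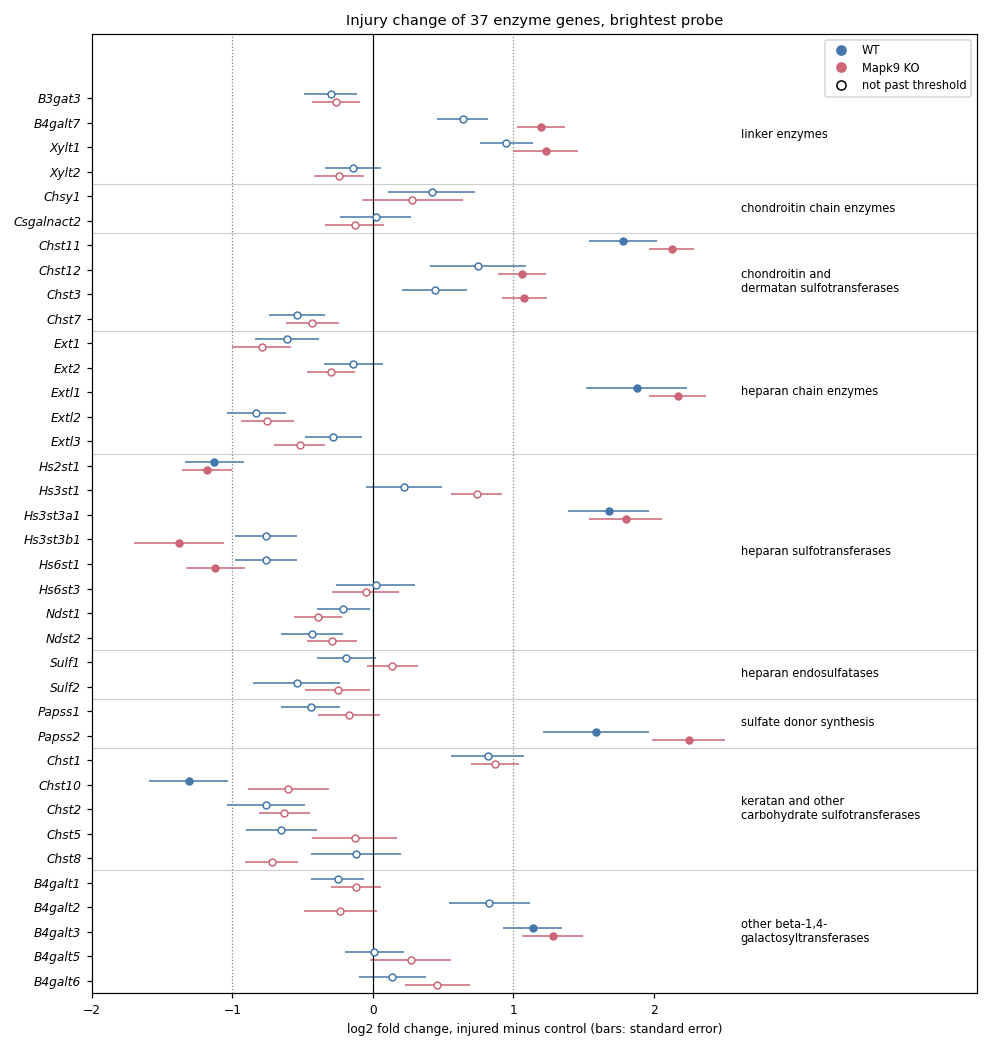
Log2 fold change of injured minus control (x axis) for the 37 enzyme genes in WT and in Mapk9 KO. Each gene is shown at its brightest probe under a member symbol, with bars of 1 standard error and filled circles past the threshold. Brighter probes of Chst11, Papss2 and Hs3st3b1 under older symbols are not shown. The chondroitin sulfotransferases Chst11, Chst12 and Chst3 lie to the right of 0 and Chst7 lies to the left. Most heparan chain genes and heparan sulfotransferases lie to the left, and Chst11, Extl1, Hs3st3a1 and Papss2 have the highest values, 1.59 to 2.25. Chst10 and the Hs3st3b1 probe were undetected on the injured arrays and B4galt5 on the control arrays, and their plotted values are estimates near background.

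Among the linker enzymes, Xylt1 and B4galt7 were upregulated in Mapk9 KO. Xylt1, one of the xylosyltransferases that start the linker, read 6.17, 6.15 and 6.30 on the WT control arrays and 7.29, 7.12 and 7.04 on the WT injured arrays. In Mapk9 KO it read 5.89, 6.00 and 6.15 in control hips and 7.51, 6.73 and 7.47 in injured hips. Control and injured arrays did not overlap in either genotype. The log2 fold change was 0.95 (standard error, SE, 0.19; adjusted p = 0.00536) in WT, just inside the fold limit, and 1.23 (SE 0.23, adjusted p = 0.0016) in Mapk9 KO. Without WT injured replicate 3 the WT change was 1.0 and Xylt1 passed. A dimmer Xylt1 probe gave 0.47 (adjusted p = 0.255) and 0.80 (adjusted p = 0.111). B4galt7, which adds the first galactose of the linker, read 6.99, 7.01 and 7.07 in WT control and 7.71, 7.56 and 7.71 in WT injured cartilage. Its Mapk9 KO values were 6.73, 6.41 and 6.61 in control and 7.82, 7.71 and 7.81 in injured cartilage. The groups did not overlap, and the change was 0.64 (SE 0.18, adjusted p = 0.0292) in WT and 1.20 (SE 0.17, adjusted p = 0.000278) in Mapk9 KO. Xylt2, the other xylosyltransferase, changed by -0.14 and -0.24 (adjusted p = 0.652 and 0.332). B3gat3, whose product adds the glucuronic acid that completes the linker, has 3 probes, with changes between -0.30 and -0.06 in WT and between -0.32 and 0.50 in Mapk9 KO, of which the last alone had an adjusted p under 0.05 (0.0365). The 3 B3gat3 probes thus differed in sign in Mapk9 KO, where the brightest read 7.62, 7.90 and 7.74 in control and 7.48, 7.63 and 7.39 in injured hips. The probe with the higher estimate read 7.05, 7.25 and 7.29 in control and 7.73, 7.71 and 7.63 in injured hips, and the third read 6.83, 7.04 and 7.43 in control and 6.42, 6.92 and 6.99 in injured hips. The median change of the 4 linker genes was 0.25 in WT and 0.48 in Mapk9 KO.

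The chondroitin chain itself was represented by 2 members, and neither passed the threshold. Csgalnact2, a transferase that adds N-acetylgalactosamine and is listed as Galnact2, changed by 0.02 (95% confidence interval -0.54 to 0.58) in WT and by -0.13 (-0.60 to 0.33) in Mapk9 KO. The probe of Chsy1, a chondroitin synthase, was near background, detected on 0 of 3, 1 of 3, 1 of 3 and 1 of 3 arrays of the 4 groups, and it did not pass in WT or Mapk9 KO (adjusted p = 0.369 and 0.582).

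Of the 4 chondroitin and dermatan sulfotransferases under a member symbol, 1 was upregulated in WT and 3 in Mapk9 KO, and none was downregulated. Over all genes 8.36% were upregulated in WT and 10.6% in Mapk9 KO. The median change of these 4 members was 0.60 in WT and 1.07 in Mapk9 KO. Among those under older symbols, described below, the dim Chst13 and Chst14 probes were lower post injury, and Chst13 was called downregulated in WT. Chst15 rose within the fold limit at its brighter probe. Chst11, chondroitin 4-O-sulfotransferase 1, which is needed for growth plate cartilage, read 6.44, 6.43 and 6.27 on the WT control arrays and 7.67, 8.39 and 8.43 on the WT injured arrays. In Mapk9 KO the values were 6.37, 6.49 and 6.29 in control and 8.59, 8.42 and 8.52 in injured hips. Every injured array lay more than 1 log2 unit above every control array. The log2 fold change was 1.78 (SE 0.24, adjusted p = 0.000606) in WT and 2.13 (SE 0.16, adjusted p = 4.09e-06) in Mapk9 KO.

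Chst3, chondroitin 6-O-sulfotransferase 1, had 2 bright probes. The brighter one read 10.44, 9.92 and 10.37 in WT control, 10.88, 10.80 and 10.36 in WT injured, 9.53, 9.65 and 9.58 in Mapk9 KO control and 10.59, 10.78 and 10.63 in Mapk9 KO injured cartilage. The WT groups overlapped and the Mapk9 KO groups did not, and the Mapk9 KO control arrays were the lowest of all. The change was 0.44 (SE 0.23, adjusted p = 0.199) in WT and 1.08 (SE 0.16, adjusted p = 0.000454) in Mapk9 KO, and the other probe gave 0.40 (adjusted p = 0.202) and 1.26 (adjusted p = 0.000187). Chst12, a further 4-O-sulfotransferase, read 8.55, 7.17 and 8.51 in WT control and 8.68, 8.84 and 8.97 in WT injured cartilage. The low value is WT control replicate 2, the array with the lowest chondrocyte list of its group. In Mapk9 KO Chst12 read 7.84, 7.68 and 7.75 in control and 8.91, 8.60 and 8.92 in injured hips. Its change was 0.75 (SE 0.34, adjusted p = 0.138) in WT and 1.06 (SE 0.17, adjusted p = 0.000735) in Mapk9 KO. Chst7, a second 6-O-sulfotransferase, changed by -0.54 (adjusted p = 0.0802) and -0.43 (adjusted p = 0.097).

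**Figure D3:**
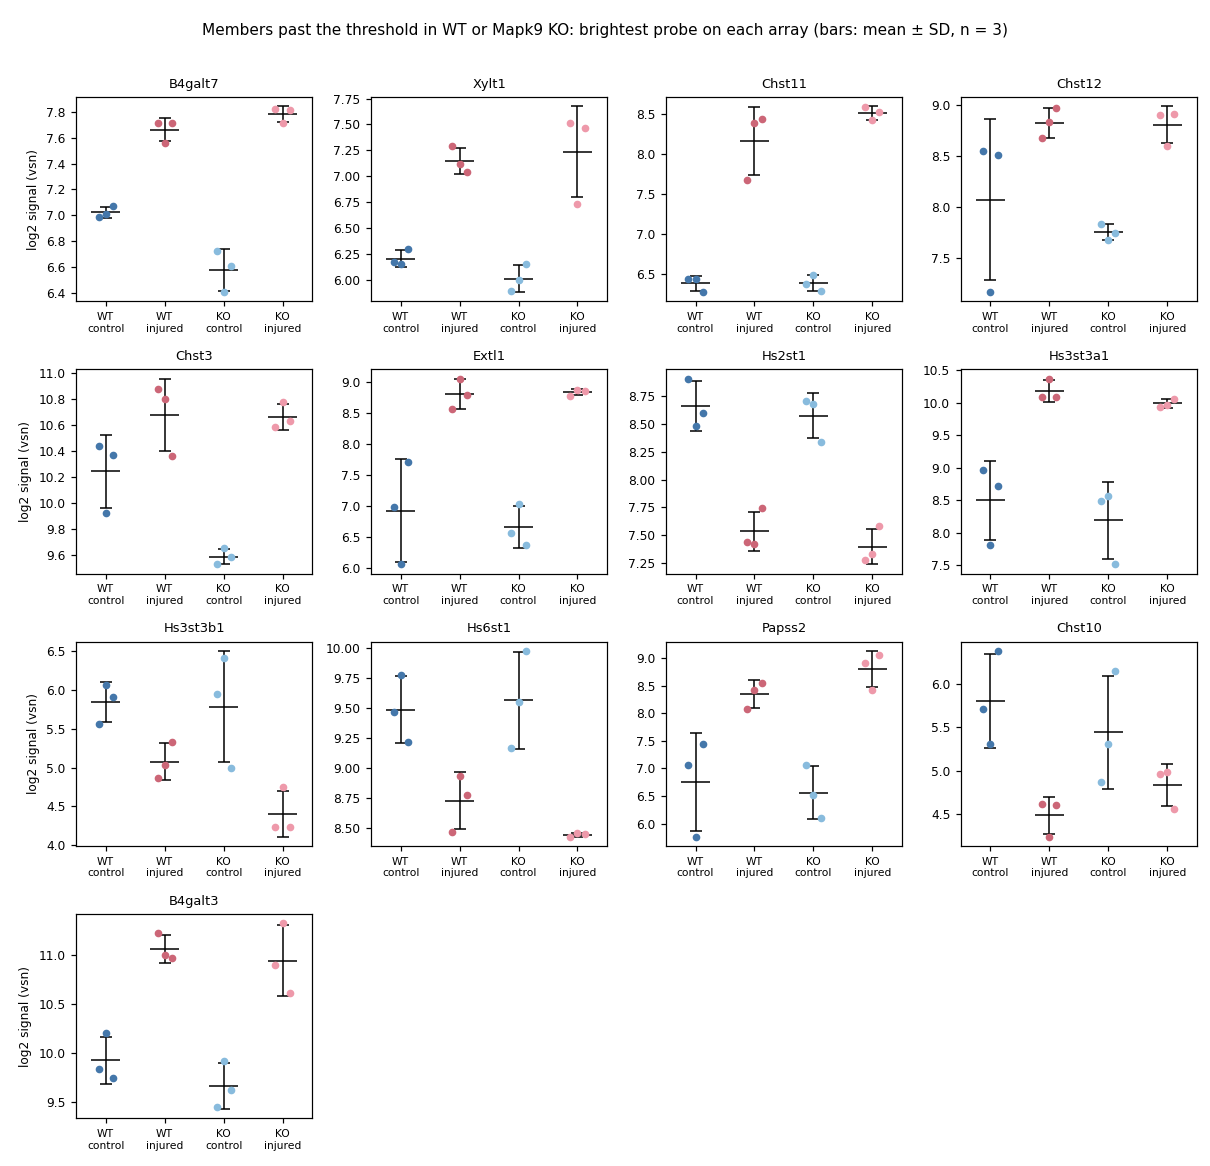
Log2 signal on each array for the 13 members past the threshold in WT or Mapk9 KO, at the brightest probe under a member symbol. Lines mark the group mean and bars 1 SD (n = 3). The y axes do not start at 0 and differ between panels. Chst11, Extl1, Hs3st3a1, Papss2 and B4galt3 are higher and Hs2st1 is lower on all injured arrays. No value shown for Hs3st3b1 or Chst10 exceeds 6.41, and the brighter Hs3st3b1 probe under an older symbol is not shown.

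Among the heparan chain genes 1 of 5 was upregulated in each genotype, beside 8.36% of all genes in WT and 10.6% in Mapk9 KO. The other 4 had estimates below 0 at their brightest probes. Extl1, an exostosin-like N-acetylglucosaminyltransferase, read 6.99, 6.06 and 7.72 on the WT control arrays and 8.57, 9.06 and 8.79 on the WT injured arrays. It read 6.57, 7.04 and 6.38 in Mapk9 KO control and 8.78, 8.88 and 8.86 in Mapk9 KO injured hips. The control arrays were spread more widely than the injured ones, without overlap. The log2 fold change was 1.88 (SE 0.36, adjusted p = 0.00429) in WT and 2.17 (SE 0.20, adjusted p = 1.47e-05) in Mapk9 KO. A dimmer Extl1 probe gave 0.86 (adjusted p = 0.0206) in WT, below the fold limit, and 1.22 (adjusted p = 0.00051) in Mapk9 KO.

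Ext1 and Ext2 encode the polymerase that extends the heparan chain. Ext1 changed by -0.61 (95% confidence interval -1.12 to -0.09, adjusted p = 0.0819) in WT and by -0.79 (-1.26 to -0.33, adjusted p = 0.0122) in Mapk9 KO, where it passed the fold limit at -1.01 without Mapk9 KO control replicate 3. The bright Ext2 probe changed by -0.14 and -0.30 (adjusted p = 0.677 and 0.208), and read 10.75, 10.38 and 10.73 in WT control, 10.33, 10.45 and 10.67 in WT injured, 10.61, 10.68 and 10.41 in Mapk9 KO control and 10.13, 10.27 and 10.41 in Mapk9 KO injured hips. A dim Ext2 probe read 5.56, 5.98 and 5.70 in WT control and 5.95, 5.98 and 6.10 in WT injured cartilage (adjusted p = 0.371), and it was undetected on all 6 Mapk9 KO arrays. Extl2 read 10.56, 10.21 and 10.11 in WT control and 9.43, 9.59 and 9.36 in WT injured cartilage, and 10.25, 10.40 and 9.99 in Mapk9 KO control and 9.26, 9.63 and 9.49 in Mapk9 KO injured cartilage. These groups did not overlap, and the changes of -0.83 (adjusted p = 0.0145) and -0.75 (adjusted p = 0.00843) stayed within the fold limit. Extl3, the transferase thought to commit a linker to the heparan chain, changed by -0.28 (adjusted p = 0.351) in WT and -0.52 (adjusted p = 0.0471) in Mapk9 KO, and its second probe by -0.34 and -0.57. The median over the 5 heparan chain genes was -0.28 in WT and -0.52 in Mapk9 KO.

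Of the 8 heparan sulfotransferases, 1 was upregulated and 1 downregulated in WT, and 1 was upregulated and 3 downregulated in Mapk9 KO. Beside this, 8.36% of all genes were up and 8.25% down in WT, and 10.6% up and 10.4% down in Mapk9 KO. Hs2st1, which adds 2-O-sulfate to the uronic acid, has 2 probes that fell alike. The brighter probe read 8.91, 8.48 and 8.60 in WT control and 7.44, 7.42 and 7.74 in WT injured cartilage. In Mapk9 KO it read 8.71, 8.68 and 8.34 in control and 7.28, 7.33 and 7.58 in injured cartilage. No injured array reached the lowest control array. The changes were -1.13 (SE 0.21, adjusted p = 0.00343) and -1.18 (SE 0.18, adjusted p = 0.000515), and the second probe gave -1.24 (adjusted p = 0.00233) and -1.48 (adjusted p = 0.000329).

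Hs6st1, a 6-O-sulfotransferase, read 9.47, 9.78 and 9.22 in WT control and 8.47, 8.94 and 8.78 in WT injured hips, and 9.17, 9.55 and 9.98 in Mapk9 KO control and 8.43, 8.46 and 8.45 in Mapk9 KO injured hips. The highest of these control values was that of Mapk9 KO control replicate 3. The change was -0.76 (SE 0.22, adjusted p = 0.0314) in WT and -1.12 (SE 0.21, adjusted p = 0.002) in Mapk9 KO, and without that array the Mapk9 KO change was -0.91 (adjusted p = 0.00518) and below the fold limit. A second Hs6st1 probe changed by -0.28 (adjusted p = 0.323) and -1.0 (adjusted p = 0.0012). Hs6st3 was detected on 7 of the 12 arrays and changed by 0.02 and -0.05. Ndst1 and Ndst2, which replace the acetyl group of glucosamine with sulfate, had estimates between -0.63 and -0.10 over their 4 probes in both genotypes, and none reached the fold limit. Hs3st1, the 3-O-sulfotransferase known for making antithrombin-binding chains, changed by 0.22 (adjusted p = 0.602) in WT and by 0.74 (adjusted p = 0.00724) in Mapk9 KO.

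Under its current symbol, Hs3st3a1 was the heparan sulfotransferase upregulated in both genotypes. It encodes an enzyme that adds the rare 3-O-sulfate to glucosamine. The probe read 8.96, 7.81 and 8.72 on the WT control arrays and 10.08, 10.37 and 10.08 on the WT injured arrays. It read 8.48, 8.57 and 7.51 in Mapk9 KO control and 9.93, 9.97 and 10.06 in Mapk9 KO injured hips. The injured arrays lay close together and above all control arrays, and the lowest control values were those of WT replicate 2 and Mapk9 KO replicate 3. The log2 fold change was 1.68 (SE 0.29, adjusted p = 0.0025) in WT and 1.80 (SE 0.26, adjusted p = 0.000356) in Mapk9 KO.

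Hs3st3b1, its close relative, gave opposite results at 2 probes. The probe listed as Hs3st3b1 was detected on 1 of 3 WT control, 0 of 3 WT injured, 1 of 3 Mapk9 KO control and 0 of 3 Mapk9 KO injured arrays. It read 5.56, 6.06 and 5.91 in WT control and 4.87, 5.03 and 5.33 in WT injured hips (adjusted p = 0.0289). It read 5.94, 6.41 and 5.0 in Mapk9 KO control and 4.24, 4.75 and 4.23 in Mapk9 KO injured hips (adjusted p = 0.0059), and no fold is given for Mapk9 KO because the control mean does not exceed the lowest signal of a detected probe. The call was lost in a fit on probes detected on at least 3 arrays. A probe deposited under an older symbol of the same gene was detected on all 12 arrays. It read 8.17, 7.18 and 7.87 in WT control, 9.21, 9.48 and 9.47 in WT injured, 7.33, 7.46 and 7.08 in Mapk9 KO control and 9.21, 9.05 and 9.34 in Mapk9 KO injured cartilage. The change of this probe was 1.64 (SE 0.26, adjusted p = 0.0016) in WT and 1.91 (SE 0.18, adjusted p = 1.64e-05) in Mapk9 KO. The first 30 of the 50 bases of these probes are shown in lower case, 5' to 3', to let the 3 be told apart, with no letters capitalized.
Hs3st3a1 probe: cccagaattgtatctaacagctgcactcag
Hs3st3b1 probe under the current symbol: gtatgcaaacacttgatccctttcccaggt
Hs3st3b1 probe under the older symbol: ggaggctccaacaagtcagtgagaatcaga

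Over the full 50 bases the Hs3st3a1 probe shared a run of at most 7 bases with the Hs3st3b1 probes, and the 2 Hs3st3b1 probes shared at most 7 with each other. The signals of the 3 probes therefore came from different stretches of sequence. Of the 13 genes with more than 1 member probe, the probes differed in sign for 2 genes in WT (B4galt1 and Ext2) and for 4 in Mapk9 KO (B3gat3, B4galt1, Ext2 and Sulf1). No probe of these genes passed the threshold, and the dim Ext2 probe was undetected in Mapk9 KO.

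The heparan endosulfatases Sulf1 and Sulf2 remove 6-O-sulfate outside the cell. Neither passed the threshold. Sulf1 changed by -0.19 (95% confidence interval -0.65 to 0.27) in WT and by 0.14 (-0.26 to 0.54) in Mapk9 KO, at its brightest probe, and Sulf2 by -0.54 (-1.23 to 0.16) and -0.25 (-0.75 to 0.26). In Mapk9 KO the brightest Sulf1 probe read 8.82, 9.25 and 9.03 in control and 9.26, 9.04 and 9.21 in injured hips, and the other read 8.86, 9.07 and 8.90 in control and 8.60, 8.63 and 8.88 in injured hips. The groups overlapped at both probes.

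Of the 2 genes for the sulfate donor PAPS, Papss2 passed the threshold in both genotypes and Papss1 in neither. Papss2, the form known for its role in growth plate cartilage, read 7.06, 5.76 and 7.44 on the WT control arrays and 8.07, 8.43 and 8.55 on the WT injured arrays. In Mapk9 KO it read 7.07, 6.51 and 6.10 in control and 8.92, 8.43 and 9.06 in injured hips. The groups did not overlap, and WT control replicate 2, where the probe was undetected, was the lowest array. The log2 fold change was 1.59 (SE 0.38, adjusted p = 0.0121) in WT and 2.25 (SE 0.26, adjusted p = 7.45e-05) in Mapk9 KO. A far brighter Papss2 probe under an older symbol read 11.79, 11.43 and 11.43 in WT control and 12.84, 13.02 and 12.70 in WT injured cartilage, and 11.48, 11.75 and 10.70 in Mapk9 KO control and 12.75, 12.99 and 12.67 in Mapk9 KO injured cartilage. It gave 1.30 (SE 0.20, adjusted p = 0.00144) in WT and 1.49 (SE 0.26, adjusted p = 0.00101) in Mapk9 KO. Papss1, the other PAPS synthase, had 2 probes that changed by -0.44 and -0.51 in WT (adjusted p = 0.168 and 0.112) and by -0.17 each in Mapk9 KO (adjusted p = 0.585 and 0.508).

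Chst11 likewise had a brighter probe under an older symbol. It read 8.48, 7.86 and 8.44 in WT control and 10.05, 10.39 and 9.95 in WT injured cartilage, and 8.31, 8.12 and 7.83 in Mapk9 KO control and 10.07, 10.01 and 10.30 in Mapk9 KO injured cartilage. The change of 1.87 (adjusted p = 0.000413) in WT and 2.04 (adjusted p = 1.42e-05) in Mapk9 KO was close to that of the probe under the current symbol. The first 30 bases of both pairs of probes show that each pair reads different sequence of its gene.
Chst11 probe under the current symbol: cggggtggaatatccctgtttttagaagtg
Chst11 probe under the older symbol: cccccagcagagctaaacagcccctctgaa
Papss2 probe under the current symbol: agcaaggcacgaggagtttgacttcatctc
Papss2 probe under the older symbol: tactgtgaccacagcaaagtgagtcttcga

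**Figure D4:**
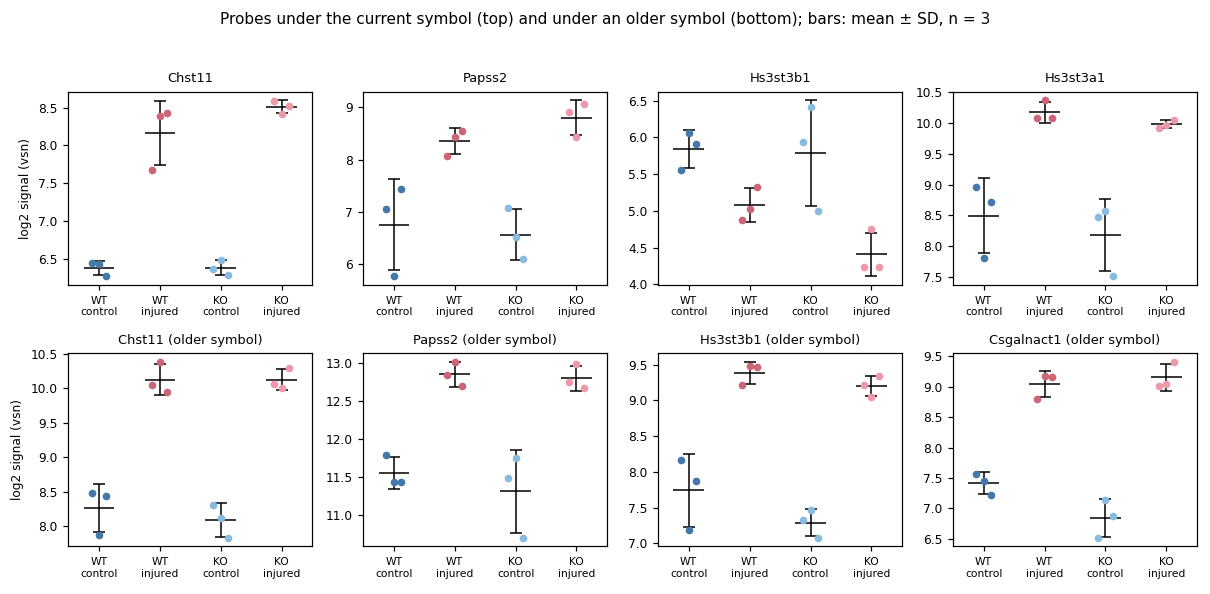
Log2 signal on each array for probes under the current symbol (top row) and under an older symbol (bottom row), with lines at the group mean and bars of 1 SD (n = 3); the y axes do not start at 0. Both Chst11 and both Papss2 probes are higher on the injured arrays, while the Hs3st3b1 probes move in opposite directions.

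In all, 11 probes for 10 genes of these families were found under older symbols by their synonym or accession in RefSeq, and 7 of the genes were no members by symbol. Csgalnact1, the enzyme that starts the chondroitin chain on the linker, was the one with the largest rise. It read 7.57, 7.45 and 7.22 in WT control and 8.80, 9.18 and 9.16 in WT injured cartilage. In Mapk9 KO it read 6.52, 7.13 and 6.88 in control and 9.01, 9.05 and 9.41 in injured cartilage. Control and injured arrays stood more than 1 log2 unit apart in both genotypes, and the change was 1.63 (SE 0.21, adjusted p = 0.000414) and 2.32 (SE 0.21, adjusted p = 1.19e-05). Chst15, which adds a second sulfate to chondroitin units, changed by 0.67 (adjusted p = 0.0396) and 0.59 (adjusted p = 0.0167) at its brighter probe, and by 0.22 and -0.05 at the dimmer one. Chpf, a chondroitin polymerizing factor, changed by 0.34 and 0.39 (adjusted p = 0.405 and 0.161).

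The remaining 4 of these probes were dim. Chst13, a 4-O-sulfotransferase, was detected on all WT control arrays and on no WT injured array, and was at least 1.41-fold lower there (adjusted p = 0.0109). Its Mapk9 KO change was -0.89 (adjusted p = 0.00474). Chst14, the dermatan 4-O-sulfotransferase, and Hs3st5 were each detected on 2 of 3 control arrays and on no injured array of either genotype. Chst14 did not pass the threshold, and Hs3st5 did in Mapk9 KO, where it was at least 1.17-fold lower (adjusted p = 0.00595). Chsy3, a chondroitin synthase, was detected on the 3 Mapk9 KO injured arrays and on none of the other 9. It was at least 1.08-fold higher there than in Mapk9 KO control hips (adjusted p = 0.00272), and the test of the difference between genotypes gave an adjusted p of 0.312.

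Of the 5 keratan and other sulfotransferases, 1 passed in WT, downwards, and 0 in Mapk9 KO, beside 16.6% and 21% of all genes in either direction. In Mapk9 KO limma gave 3 an adjusted p under 0.05 within the fold limit. Chst1, which sulfates the galactose of keratan sulfate, read 10.26, 9.33 and 10.14 in WT control and 10.65, 10.88 and 10.64 in WT injured cartilage. Its changes of 0.82 (adjusted p = 0.0441) and 0.87 (adjusted p = 0.00219) were below the fold limit. Chst10, which makes the HNK-1 epitope, read 5.71, 5.31 and 6.38 in WT control and 4.62, 4.24 and 4.60 in WT injured hips (adjusted p = 0.00697), was undetected on all injured arrays and is given without a fold. In Mapk9 KO it read 4.87, 5.31 and 6.15 in control and 4.96, 4.99 and 4.56 in injured hips (adjusted p = 0.131). Chst2 changed by -0.76 (adjusted p = 0.0785) and -0.63 (adjusted p = 0.0201), Chst8 by -0.12 and -0.72 (adjusted p = 0.817 and 0.0131), and Chst5 by -0.65 and -0.13 (adjusted p = 0.0844 and 0.77).

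B4galt3 was the changed gene among the other beta-1,4-galactosyltransferases, which act mostly on glycoproteins and glycolipids. Its brighter probe read 9.84, 10.20 and 9.74 in WT control and 11.23, 11 and 10.97 in WT injured cartilage, and 9.45, 9.92 and 9.62 in Mapk9 KO control and 10.90, 11.33 and 10.61 in Mapk9 KO injured cartilage. All injured arrays lay above all control arrays. The change was 1.14 (SE 0.21, adjusted p = 0.00324) and 1.28 (SE 0.22, adjusted p = 0.00101), and the second probe gave 1.32 (adjusted p = 0.00331) and 1.75 (adjusted p = 3.62e-05). B4galt1 and B4galt6 had estimates between -0.25 and 0.46, and neither passed the threshold. The brightest B4galt1 probe read 9.71, 9.65 and 9.51 in WT control and 9.46, 9.23 and 9.44 in WT injured cartilage, and 9.51, 9.83 and 9.46 in Mapk9 KO control and 9.55, 9.57 and 9.30 in Mapk9 KO injured cartilage. All values of its dim probe lay between 5.74 and 6.53. B4galt5 was detected on no control array and on 3 injured arrays, did not pass (adjusted p = 0.974 and 0.515), and is given without a fold. B4galt2 was detected on 2 of the 12 arrays and on no WT control array. It was at least 1.01-fold higher in WT injured hips, did not pass in WT or Mapk9 KO (adjusted p = 0.0614 and 0.521), and passed in WT without WT control replicate 2.

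The sequences before the start of the genes upregulated in both genotypes were read from RefSeq (build GRCm38.p6), because these members moved together. Windows of 250 bases before the annotated start were given for 31 of the 37 members, 36 windows in all. Of the genes upregulated in both genotypes at a probe under the current or an older symbol, 6 have windows, 7 in all, and Csgalnact1 was not matched. Of these 7 windows 1 with a match is shown for each of 4 genes, and that of Extl1 is shown as one without. The Hs3st3b1 window, which holds ACGTG, and the second Papss2 window, which holds neither motif, are not shown. The windows are printed 5' to 3' on the strand of the gene. Capitals mark the cyclic AMP response element TGACGTCA and the hypoxia element core ACGTG, each on either strand.
Chst11, chr10:82985247-82985496, plus strand: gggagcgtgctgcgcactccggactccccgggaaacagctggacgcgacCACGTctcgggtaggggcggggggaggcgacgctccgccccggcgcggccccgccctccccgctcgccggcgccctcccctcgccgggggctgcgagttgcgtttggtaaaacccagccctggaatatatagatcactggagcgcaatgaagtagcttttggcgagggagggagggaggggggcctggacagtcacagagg
Hs3st3a1, chr11:64435082-64435331, plus strand: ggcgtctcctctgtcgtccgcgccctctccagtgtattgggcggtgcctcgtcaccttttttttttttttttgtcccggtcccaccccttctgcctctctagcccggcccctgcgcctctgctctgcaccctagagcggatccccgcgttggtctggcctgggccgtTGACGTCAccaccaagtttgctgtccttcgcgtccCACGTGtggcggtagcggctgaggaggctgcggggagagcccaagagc
Papss2, chr19:32595465-32595714, plus strand: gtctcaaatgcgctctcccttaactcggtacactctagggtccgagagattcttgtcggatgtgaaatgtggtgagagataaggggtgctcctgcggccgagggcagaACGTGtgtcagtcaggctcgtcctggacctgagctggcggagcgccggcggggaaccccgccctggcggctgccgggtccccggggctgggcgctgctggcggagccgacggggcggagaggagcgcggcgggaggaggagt
B4galt3, chr1:171270078-171270327, plus strand: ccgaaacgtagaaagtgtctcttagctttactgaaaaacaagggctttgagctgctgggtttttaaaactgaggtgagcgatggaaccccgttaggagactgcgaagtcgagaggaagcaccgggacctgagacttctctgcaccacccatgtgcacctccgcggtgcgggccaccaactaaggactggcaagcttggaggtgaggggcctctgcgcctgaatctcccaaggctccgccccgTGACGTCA
Extl1, chr4:134372548-134372797, minus strand: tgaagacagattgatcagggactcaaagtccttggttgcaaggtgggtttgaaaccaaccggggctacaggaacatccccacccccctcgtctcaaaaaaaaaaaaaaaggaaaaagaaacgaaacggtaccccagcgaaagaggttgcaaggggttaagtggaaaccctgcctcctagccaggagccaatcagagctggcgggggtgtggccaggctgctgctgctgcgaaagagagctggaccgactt

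TGACGTCA was found in 2 of 7 windows of 6 upregulated genes, Hs3st3a1 and B4galt3. It was found in 5.56% of the 36 windows of all members and in 1.55% of all 32851 windows. All windows here are those of 27025 genes in RefSeq, not the genes of the array table alone. ACGTG was found in 4 of the 7, in 27.8% of the member windows and in 16.6% of all windows. The AP-1 letters TGANTCA were found in 0 of the 7, in 2.78% and in 6.75%. GGGCGG, the GC box, was found in 5 of the 7 (71.4%), in 63.9% of the member windows and in 32.7% of all windows, so that its share among the upregulated genes was near that of all members. These 6 genes include Hs3st3b1 through its probe under the older symbol, and the motifs were searched on both strands and TGACGTCA does not itself hold ACGTG on either strand. A match describes the letters only, and no binding was measured.

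The second question of the design was whether the enzymes differed between WT and Mapk9 KO cartilage, and 0 of the 37 members passed in any of these tests. In control hips 0.149% of all genes passed, and 5 of the 52 member probes (9.62%) had an unadjusted p under 0.05 by limma, beside 1356 of 21004 probes (6.46%). In injured hips 0.201% of all genes passed, and 4 member probes (7.69%) had an unadjusted p under 0.05, beside 2648 of 21004 (12.6%). The test of the difference between the injury effects called 0% of all genes, with 6 of 52 member probes (11.5%) and 2088 of 21004 probes (9.94%) at an unadjusted p under 0.05. These counts over all genes were not stable. With the replicate number as a block, the calls over all genes went from 0 to 105 for the difference between injury effects and from 31 to 173 in injured hips. Without WT control replicate 3 the difference gave 209 and the control hips went from 23 to 341, and without WT injured replicate 1 the injured hips gave 145. The count of members stayed at 0 in each of these fits. A larger number of calls in Mapk9 KO than in WT is therefore not a tested difference.

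The control hips also differed in the skeletal muscle list, whose mean was 11.18 to 12.63 on the WT and 12.72 to 13.10 on the Mapk9 KO arrays. The median difference of its 13 genes was 1.15, 0 of them passed, and its part in the values that follow was not tested. The member with the smallest adjusted p between control hips was Chst3, at its dimmer probe. It read 10.19, 9.89 and 10.04 in WT control and 9.24, 9.40 and 9.20 in Mapk9 KO control hips. The groups did not overlap, and Mapk9 KO minus WT was -0.76 (95% confidence interval -1.21 to -0.32, adjusted p = 0.463). The same probe also had the smallest adjusted p for the difference between injury effects, 0.86 (0.32 to 1.40, adjusted p = 0.32), and these 2 comparisons share the control arrays. The injured values were 10.64, 10.56 and 10.13 in WT and 10.42, 10.54 and 10.67 in Mapk9 KO. Between injured hips the smallest adjusted p was that of an Ndst1 probe, which read 8.0, 8.27 and 8.5 in WT and 7.23, 7.66 and 7.70 in Mapk9 KO, a difference of -0.72 (-1.17 to -0.28, adjusted p = 0.229). Other Ndst1 probes read 9.37 ± 0.08 and 8.82 ± 0.30 (SD, n = 3) in WT injured hips and 9.13 ± 0.11 and 8.78 ± 0.21 in Mapk9 KO injured hips.

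Over all member probes the differences between injury effects ran from -1.07 to 0.86. The lowest was that of B4galt2, which was near background, and the next was a Hs6st1 probe at -0.72 (95% confidence interval -1.22 to -0.21, adjusted p = 0.355). B4galt7 had a difference of 0.56 (0.09 to 1.03, adjusted p = 0.417). Among the probes under older symbols the difference was 0.68 (0.07 to 1.30, adjusted p = 0.451) for Csgalnact1, 0.17 (-0.47 to 0.81) for Chst11, 0.27 (-0.42 to 0.96) for Hs3st3b1 and 0.19 (-0.54 to 0.91) for Papss2.

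The other genes of the pathway were taken from lists of enzymes, suppliers, core proteins and breakdown enzymes. Beside their counts stand the shares of all genes, 8.36% up and 8.25% down in WT and 10.6% up and 10.4% down in Mapk9 KO. Of 9 genes in the table that supply nucleotide sugars or sulfate, Gfpt2, which feeds the hexosamine route, was upregulated by 1.78 (adjusted p = 0.0042) in WT and 1.83 (adjusted p = 1.43e-05) in Mapk9 KO. Gfpt1 was the other gene called on this list, in Mapk9 KO alone and at a dimmer probe, while its brightest gave 0.69. The median of the list was 0.29 in WT and 0.69 in Mapk9 KO. A list of 8 further enzymes of chain synthesis holds Csgalnact1, Chst14 and Chst15, described above, and 0 of the other 5 passed. B3galt6, which adds the next galactose of the linker, changed by 0.17 (adjusted p = 0.597) in WT and by 0.92 (adjusted p = 0.00369) in Mapk9 KO, below the fold limit. Glce rose by 0.62 (adjusted p = 0.0439) in WT and by 0.92 (adjusted p = 0.00113) in Mapk9 KO, also below it. Pxylp1, Fam20b and Dsel had no adjusted p under 0.05 in either genotype.

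Of 13 genes in the table for enzymes that break the chains down, most of them lysosomal, 5 were downregulated and 0 upregulated in each genotype. Over all genes 8.25% were downregulated in WT and 10.4% in Mapk9 KO, and 8.36% and 10.6% were upregulated. The median of the breakdown list was -0.79 in WT and -0.90 in Mapk9 KO. Glb1, beta-galactosidase, fell by 1.45 (adjusted p = 0.00097) in WT and by 1.87 (adjusted p = 0.000228) in Mapk9 KO. Arsb, which removes 4-O-sulfate from chondroitin and dermatan sulfate, fell by 1.25 (adjusted p = 0.00358) and by 1.76 (adjusted p = 0.000221). Hyal1 fell by 1.30 (adjusted p = 0.00279) and by 1.27 (adjusted p = 0.000195). Gusb fell by 1.33 (adjusted p = 0.000939) in Mapk9 KO and was called in WT at a dimmer probe, while its brightest gave -0.93 (adjusted p = 0.00997). Hexa was called in Mapk9 KO. Galns, which acts on keratan and chondroitin sulfate, changed by -0.05 and -0.04 (adjusted p = 0.884 and 0.893). The osteoclast list and the macrophage genes Csf1r, Adgre1 and Mrc1, of cells rich in lysosomes, were lower on the same injured arrays. Cd14 and Lyz2 of the macrophage list were called upregulated, Lyz2 at a dimmer probe alone. The mean of the macrophage list was 9.54 and 9.62 in WT control and injured hips, and 9.63 and 9.53 in Mapk9 KO. The part of these cell types in the falls of the breakdown enzymes was not tested. Heparanase (Hpse) changed by 0.69 (adjusted p = 0.0229) and 0.53 (adjusted p = 0.0377), below the fold limit.

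The core proteins that carry the chains moved in both directions. Of 19 genes in the table, 3 were upregulated and 5 downregulated in WT, and 4 and 4 in Mapk9 KO. The shares of all genes were 8.36% up and 8.25% down in WT, and 10.6% up and 10.4% down in Mapk9 KO. Acan, aggrecan, which carries most of the chondroitin sulfate of cartilage and is also a gene of the chondrocyte list, rose by 2.03 (adjusted p = 0.00444) in WT and by 2.18 (adjusted p = 1.67e-05) in Mapk9 KO. Srgn, serglycin of secretory granules, rose by 2.87 (adjusted p = 3.56e-05) and by 3.16 (adjusted p = 3.65e-06), and Epyc, epiphycan, by 1.23 (adjusted p = 0.0467) and by 2.10 (adjusted p = 0.00176). Sdc2, a syndecan that carries heparan sulfate, fell by 1.31 (adjusted p = 0.00172) and by 1.32 (adjusted p = 0.000183). Gpc3, a glypican, fell by 2.56 (adjusted p = 2.07e-06) in Mapk9 KO, its WT change was -1.13 (adjusted p = 0.0558), and the difference between genotypes had an adjusted p of 0.355. Dcn, Vcan and Sdc1 were called in WT at probes other than their brightest, and the brightest gave 0.24, 0.24 and -0.64. The Mapk9 KO call of Dcn also came from a dimmer probe, and its brightest gave -0.11 there.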

How the data were processed

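The authors scanned 12 Illumina mouse BeadChips and deposited raw signal intensities for 45281 probes, each with a detection p-value. They also deposited a table of log2 values for 21004 probes, made by a background correction that used the negative controls and by vsn normalization. Neither the version of vsn nor a genome build for the probes is given in the sources used here, so no probe coordinates are printed. The log2 values were used as deposited, the intensities served for other normalizations, and the detection p-values for calls of detection. The number of arrays limits the precision.

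Groups and replicate numbers came from the labels. Tests used limma 3.58.1 under R 4.3.3 (functions lmFit and eBayes), and p-values were adjusted by Benjamini and Hochberg's method across the 21004 probes. Contrasts of a pair of groups were fitted on their 6 arrays, and the difference between injury effects and their average on all 12. A call needed more than a 2-fold change with an adjusted p under 0.05, except that the difference between injury effects needed the adjusted p alone. A gene was counted once, if any probe passed, and its main probe was the one with the highest mean over all arrays. For members it was chosen among the probes under a member symbol, so that brighter probes under older symbols were left out. The methods describe the pools of a group as independent biological replicates, and the labels do not say what a shared replicate number marks. For a probe detected on no array of a group, the bound compares the mean of the other group with the mean, over the undetected arrays, of the larger of the probe's value and the faintest detected signal. No fold is given where that bound is under 1.

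Every member was accounted for, and values on each array were given for members past the threshold in an injury comparison, for the smallest adjusted p of each genotype test, and, in the genotype concerned, for genes whose probes differed in sign (the brightest probe where they differed in call, a range for a dim B4galt1 probe). The array carries 37 further probes with member symbols outside the table, 1 of them detected on 1 array, and 10 genes have no probe in the table. A gene counted on the breakdown list is not reported here by name. The members, gene lists and tests were chosen with earlier results of these data known.

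After group means were subtracted, the 18 pairs of arrays with one replicate number correlated at 0.153 to 0.390 (median 0.249), and the 36 other pairs at -0.289 to 0.0825 (median -0.140), so samples were taken as paired by number. The reported tests leave this pairing out, and the fit with it is an alternative. The limma script was tested on simulated data. Alternatives were neqc (normexp with quantile normalization, offset 16), quantile normalization of uncorrected signals, centring on array medians, a filter on probes detected on at least 3 arrays, a joint fit of all 12 arrays, the replicate number or the number of the label code as a block, an ordinary t-test of each probe (the test that a legend of the study names for its plotted p-values), a fold limit of 1.5 or none, the main probe alone, and the removal of each array in turn. Promoter windows and current symbols came from RefSeq tables.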

Additional observations from a re-analysis of the deposited data

How the results depend on the processing

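With quantile normalization without background correction, 3 member genes passed in WT, 6 in Mapk9 KO and 5 for the average injury effect, against 7, 12 and 8 as reported. An ordinary t-test of each probe, with adjustment, passed 3 in WT and 11 in Mapk9 KO. With a fold limit of 1.5 the counts were 13, 19 and 17, and with no fold limit 13, 21 and 23. Leaving out 1 array at a time gave 7 to 8 in WT, 12 to 12 in Mapk9 KO and 7 to 10 for the average. Without Mapk9 KO control replicate 3, Hs6st1 was lost and Ext1 gained in Mapk9 KO, and without Mapk9 KO control replicate 2 Hs3st3b1 was lost from the average. Pairing the samples by replicate number as a block gave 7, 12 and 8 genes and changed no call of a member gene. The genotype tests and the difference between injury effects gave 0 member genes under every alternative run, although counts over all genes moved with the replicate block and with single arrays left out, as given beside them. At single member probes with an adjusted p under 0.05, under all alternatives except the other fold limits and the main probe alone, 570 estimates kept their direction and side of the threshold, 24 no longer passed, 6 newly passed and 0 reversed. Near-background probes, among them Chst10, Hs3st3b1 under its current symbol, B4galt2 and Chsy1, limit what can be said of those genes.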
